A study of Homo sapiens with 8 samples.

Results

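Tryptophan is broken down mainly through the kynurenine route, and 7 of its genes are described here in human neuroblastoma cell lines: TDO2, IDO1, AFMID, KMO, KYNU, HAAO and QPRT. They are 7 of 19774 genes on an Affymetrix expression array of perfect-match probe sets. Probe sets annotated to 1 of these symbols alone were used, which gave 15 probe sets for the 7 genes. The probe set that stands for each gene was chosen by its measured level, as the highest mean over the 8 arrays, and the other 8 were checked. Levels are RMA signals on the log2 scale, so a difference of 1 is a 2-fold difference, and levels of different probe sets cannot be set against each other. The study measured 4 lines with 1 array per line and treatment: SKNAS/shHIF1a, SKNAS, NB1691 and SKNBE2, each given 2.5 µM ciclopirox, an iron chelator used as an antifungal, or vehicle for 48 h, and all grown in the same serum-supplemented RPMI medium. SKNAS/shHIF1a is labelled a stable HIF1A knockdown; the labels do not say whether it is 1 clone or a pool, and no line with a control hairpin was analysed here. The labels give SKNAS a c-Myc status and SKNAS/shHIF1a, NB1691 and SKNBE2 an N-Myc status, and SKNAS and SKNAS/shHIF1a are called the SKNAS-derived lines below. Whether the arrays of a line stem from separate cultures is not labelled, so the errors give the spread between arrays or between lines, which may be technical.

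TDO2 and IDO1 are heme enzymes that open the tryptophan ring in the committing step. TDO2 is known best from the liver, and IDO1 is known for its induction by interferon gamma. AFMID then frees kynurenine, KMO hydroxylates it, KYNU cleaves kynurenine and its hydroxylated form, and HAAO, an iron-dependent dioxygenase, opens the next ring on the way to quinolinate. QPRT turns quinolinate into a precursor of NAD. Kynurenine itself can activate the aryl hydrocarbon receptor AHR.

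Of the 7 genes, TDO2, KYNU and QPRT differed between lines, and their promoters are printed for that reason. Shown are the 250 bases before the annotated start from RefSeq (GRCh38.p14), all on the plus strand: TDO2 at chr4:155903446-155903695, KYNU at chr2:142877414-142877663 and QPRT at chr16:29678930-29679179. Capitals mark letters that match a searched motif.
TDO2: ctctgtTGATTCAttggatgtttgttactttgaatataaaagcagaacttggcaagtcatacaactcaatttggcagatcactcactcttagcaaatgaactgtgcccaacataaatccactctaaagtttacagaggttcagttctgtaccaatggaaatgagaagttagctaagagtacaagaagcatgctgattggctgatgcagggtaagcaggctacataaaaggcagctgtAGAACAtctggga
KYNU: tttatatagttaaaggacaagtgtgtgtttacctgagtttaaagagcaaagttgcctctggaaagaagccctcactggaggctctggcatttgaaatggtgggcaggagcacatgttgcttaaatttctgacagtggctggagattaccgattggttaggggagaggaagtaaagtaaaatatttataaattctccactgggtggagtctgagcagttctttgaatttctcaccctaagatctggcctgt
QPRT: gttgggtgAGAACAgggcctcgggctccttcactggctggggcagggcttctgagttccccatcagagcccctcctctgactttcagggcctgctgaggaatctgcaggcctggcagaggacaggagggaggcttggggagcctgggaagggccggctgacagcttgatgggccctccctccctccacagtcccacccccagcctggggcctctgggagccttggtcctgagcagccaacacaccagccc

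The motifs searched, on both strands, were the HIF core ACGTG, its variant GCGTG that is also the AHR core, the E-box CACGTG, which contains the HIF core, the interferon-stimulated element, the AP-1 motif TGANTCA, the NF-kB motif and TGTTCT, which is only a part of the full glucocorticoid receptor site. Among 35116 promoters of the same length in that table they occurred in 18.5%, 32.2%, 6.34%, 3.02%, 6.57%, 9.96% and 12.4%. TDO2 held 1 AP-1 match and 1 match of TGTTCT in reverse, written AGAACA. QPRT held 1 match of TGTTCT in reverse, and KYNU held none of the motifs. The 3 windows had 0, 1 and 2 CG pairs in TDO2, KYNU and QPRT, against a median of 11 over all promoters, although QPRT had a GC content of 66.4% and the median promoter 58.0%. AFMID and HAAO, whose transcripts lay near the lower end of the scale, had 24 and 30 CG pairs, and KMO had 1. AFMID held 2 matches of ACGTG and 1 of GCGTG. A match describes letters only and shows no binding.

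The knockdown was checked on its target. HIF1A had levels of 11.09 under ciclopirox and 11.71 under vehicle in SKNAS/shHIF1a, against 11.94 and 12.25 in SKNAS. The difference of -0.69 ± 0.21 (SE, 2 arrays per line) did not pass (limma, adjusted p = 0.257), and the array holds 1 HIF1A probe set with that symbol alone. Differences between the knockdown line and its parent are therefore differences between the line labelled SKNAS/shHIF1a and SKNAS. The cell type markers split the lines. The 8 mesenchymal markers had a summed linear signal of 12907.1 to 19489.5 in the SKNAS-derived lines and 1803.3 to 6070.6 in NB1691 and SKNBE2, and the 7 noradrenergic markers analysed had 1282.4 to 3732.3 and 8722.3 to 11449.3. Such sums are weighted by the brightest probe sets, as with the mesenchymal marker VIM at 13.14 to 13.48 in the SKNAS-derived lines. Among the noradrenergic markers in these lines TH, the rate-limiting enzyme of catecholamine synthesis, stood at 3.15 to 3.59, HAND2 at 3.99 to 4.84 and DBH at 4.37 to 5.7. GATA3 stood at 9.74 to 11.10, GATA2 at 7.43 to 9.75, ISL1 at 6.33 to 8.58 and PHOX2A at 6.93 to 7.81.

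Of the 7 enzymes, 4 reached the level filter (a mean of at least 3.208, the 40th percentile of probe set means) and were tested with all genes: TDO2, AFMID, KYNU and QPRT. IDO1, KMO and HAAO stayed below it and are given by their values. TDO2 and KYNU passed the filter through the SKNAS-derived arrays, since their levels in NB1691 and SKNBE2 lie below it, so a difference between lines was needed for them to be tested at all. The chosen probe set had a mean of 7.15 for TDO2, with 2.93 for the other. The means were 4.81 and next 3.65 for KYNU, 9.22 and 8.78 for QPRT, and 2.95 and next 2.90 for KMO.

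**Figure D1:**
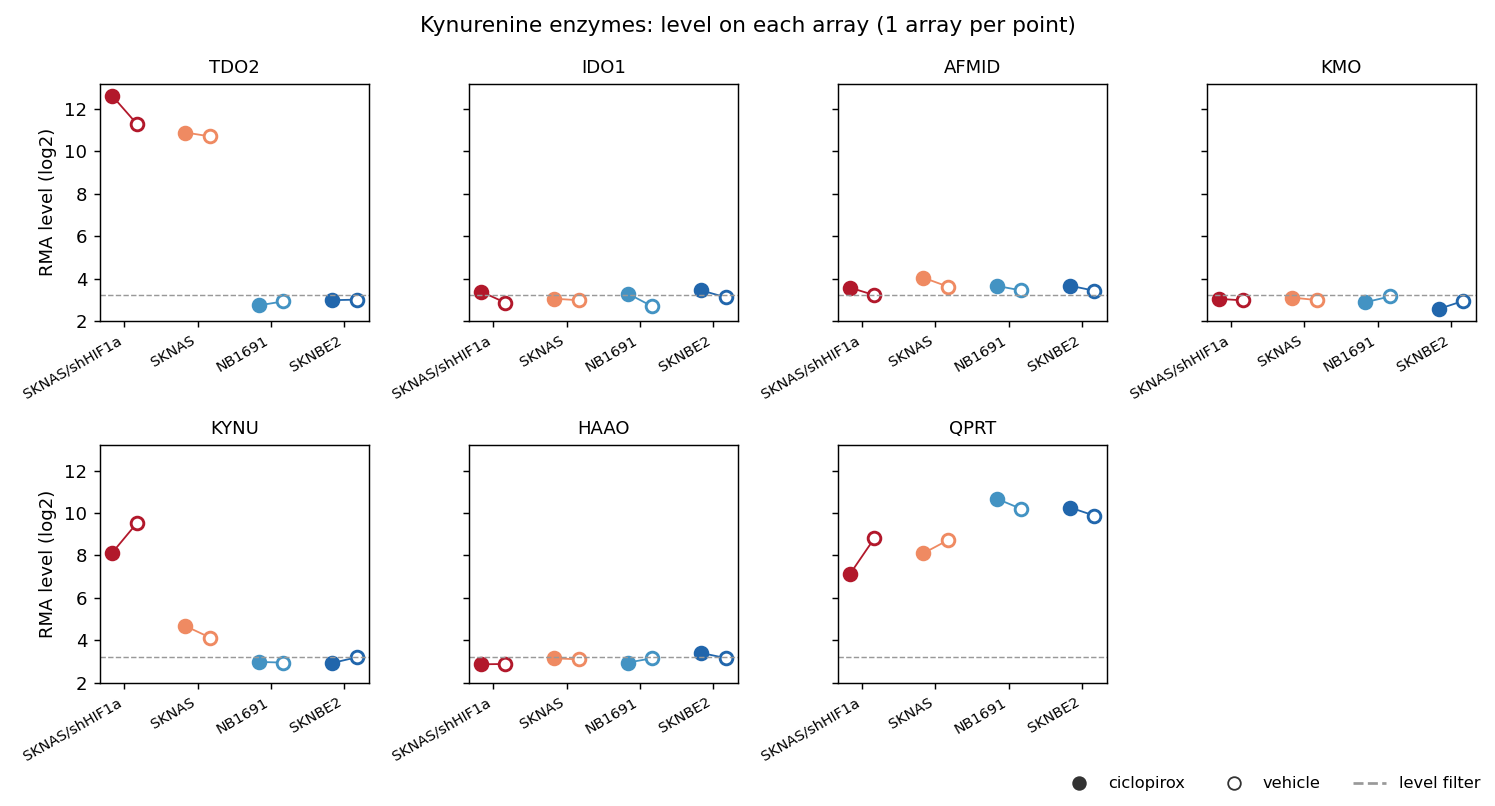
Level of the 7 enzymes on each array (y axis, RMA level in log2; x axis, cell line). Each point is 1 array, filled for ciclopirox and open for vehicle, lines join the arrays of a line, and the dashed line is the level filter of 3.208. TDO2 lies between 10.71 and 12.63 in the SKNAS-derived lines and at or below 3.0 in NB1691 and SKNBE2, KYNU is high in SKNAS/shHIF1a, and IDO1, KMO and HAAO stay near the filter.

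TDO2, the liver-type ring-opening enzyme, was read strongly in the SKNAS-derived lines and near background elsewhere. Its levels under ciclopirox and vehicle were 12.63 and 11.31 in SKNAS/shHIF1a and 10.89 and 10.71 in SKNAS. They were 2.73 and 2.92 in NB1691, and 2.98 and 3.0 in SKNBE2. The 4 arrays of the SKNAS-derived lines lay far above the other 4. In such bulk RNA, fewer expressing cells and less RNA per cell cannot be told apart. The difference was 8.48 ± 0.26 (SE, 4 arrays against 4; adjusted p = 1.23e-05), in a comparison in which 45.8% of 14517 tested genes passed, so that a call as such is common here. Since TDO2 lay below the level filter in NB1691 and SKNBE2, this difference and that between SKNAS and SKNBE2 below are lower bounds in size. In NB1691 minus SKNBE2 both levels lie below the filter, so its size cannot be read. The errors cover the spread of the measured signals only. The error of 0.26 is the spread between arrays after line and treatment, and the comparison by line origin is about these 4 lines. Ordered by line means over 2 arrays, TDO2 stood at 11.97 ± 0.93 (SD) in SKNAS/shHIF1a, 10.80 ± 0.13 in SKNAS, 2.99 ± 0.02 in SKNBE2 and 2.83 ± 0.13 in NB1691. Neighbours at either end of that order did not pass, with 1.17 ± 0.37 for SKNAS/shHIF1a minus SKNAS (SE, adjusted p = 0.276) and -0.16 ± 0.37 for NB1691 minus SKNBE2 (adjusted p = 0.794, in a comparison in which 25.1% of genes passed, 12.9% as higher and 12.2% as lower). SKNAS and SKNBE2, the middle neighbours, differed by 7.81 ± 0.37 (adjusted p = 9e-05). The difference between the knockdown line and its parent was 1.73 under ciclopirox and 0.60 under vehicle, on 1 array each. The other TDO2 probe set stayed between 2.67 and 3.67 on all 8 arrays, with its highest value in SKNAS/shHIF1a under ciclopirox, and did not show the step between lines. The mean of both probe sets gave a difference by line origin of 4.40 (adjusted p = 5.04e-05).

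IDO1, the interferon-inducible counterpart of TDO2, was below the filter by its mean over the 8 arrays. Its levels were 3.38 under ciclopirox and 2.85 under vehicle in SKNAS/shHIF1a, 3.05 and 2.97 in SKNAS, 3.29 and 2.68 in NB1691, and 3.44 and 3.11 in SKNBE2. The ciclopirox array was the higher of the pair in each line, by 0.07 to 0.61, and the treatments overlapped across lines. With no filter applied, the mean change was 0.39 ± 0.12 (SE, n = 4 lines) and did not pass (adjusted p = 0.245). The lines lay close together, between means of 2.99 in NB1691 and 3.28 in SKNBE2.

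AFMID, the formamidase that releases kynurenine, was read near the filter by its only probe set with that symbol alone; a further probe set carries AFMID together with IDS and was not used. Its levels under ciclopirox and vehicle were 3.57 and 3.22 in SKNAS/shHIF1a, 4.04 and 3.62 in SKNAS, 3.65 and 3.44 in NB1691, and 3.66 and 3.42 in SKNBE2. AFMID was higher under ciclopirox in all 4 lines, as were 11.8% of tested genes, but by no more than 0.42. The mean change of 0.31 ± 0.11 (SE, n = 4 lines) did not pass (adjusted p = 0.253), and neither did the difference of -0.44 ± 0.16 between the knockdown line and its parent (adjusted p = 0.348).

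KMO, the kynurenine hydroxylase, stayed between 2.56 and 3.15 over the 8 arrays, and its other 2 probe sets between 2.31 and 3.11. Ciclopirox minus vehicle was 0.07 in SKNAS/shHIF1a, 0.12 in SKNAS, -0.27 in NB1691 and -0.38 in SKNBE2. HAAO, the iron-dependent ring-opening enzyme further down, stayed between 2.86 and 3.40, with changes of -0.02, 0.05, -0.20 and 0.24 in the same order of lines. Neither gene reached the filter on its mean, and at such levels a low transcript and no transcript cannot be told apart.

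KYNU, kynureninase, was read highest in the knockdown line. Its chosen probe set, 217388_PM_s_at, had levels of 8.12 under ciclopirox and 9.51 under vehicle in SKNAS/shHIF1a, against 4.66 and 4.12 in SKNAS. The levels were 2.97 and 2.94 in NB1691, and 2.92 and 3.19 in SKNBE2. Both knockdown arrays lay above both parental arrays, by 3.46 under ciclopirox and 5.38 under vehicle. The difference was 4.42 ± 0.44 (SE, 2 arrays per line; adjusted p = 0.0101), and in this comparison 1.58% of tested genes passed, 0.744% as higher and 0.84% as lower. KYNU was the only 1 of the 4 tested enzymes to pass. Its probe set was chosen as the brightest, and its highest levels are those of the knockdown arrays. The call ended when the vehicle array of SKNAS was left out (3.88, adjusted p = 0.0963) and when its ciclopirox array was left out (4.96, adjusted p = 0.064).

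The SKNAS-derived lines together had a KYNU level at least 3.60 ± 0.31 above NB1691 and SKNBE2 on the brightest probe set (SE, adjusted p = 0.000376), a lower bound, as KYNU lay below the filter on all 4 arrays of those lines. On 204385_PM_at the difference was 0.24 and did not pass (adjusted p = 0.392), and on the mean of the probe sets it was 0.95 (adjusted p = 0.00398). Without SKNAS/shHIF1a the difference on the brightest probe set was 1.39 (adjusted p = 0.00678), and without SKNAS it was 5.81 (adjusted p = 0.000837). Line means were 8.82 ± 0.98 in SKNAS/shHIF1a, 4.40 ± 0.38 in SKNAS, 3.06 ± 0.19 in SKNBE2 and 2.96 ± 0.02 in NB1691 (SD, 2 arrays). In that order SKNAS and its neighbour SKNBE2 did not differ past the threshold (1.34 ± 0.44 SE, adjusted p = 0.0648, a comparison in which 30.9% of genes passed), whereas SKNAS and NB1691 did (1.44 ± 0.44, adjusted p = 0.0453, with 37.7% passing).

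The 5 KYNU probe sets differed among themselves. Under vehicle, SKNAS/shHIF1a minus SKNAS was 5.38 on 217388_PM_s_at, 0.38 on 204385_PM_at and 0.04 on 210663_PM_s_at. Under ciclopirox the same differences were 3.46, 1.15 and 2.91. So the knockdown line stood apart from its parent on 3 probe sets under ciclopirox and on 1 under vehicle, in each case by more than 2-fold, which 8.28% and 6.59% of tested genes reached under the same treatments. The response to ciclopirox within SKNAS/shHIF1a changed sign with the probe set. The brightest had 8.12 under ciclopirox against 9.51 under vehicle, a change of -1.39. The probe set 210663_PM_s_at had 5.59 against 2.68, a change of 2.92, and 204385_PM_at had 4.69 against 3.61, a change of 1.08. The other 2, 241305_PM_at and 210662_PM_at, stayed between 2.40 and 2.87 on every array. On the only other KYNU probe set past the filter, 204385_PM_at, the difference between the knockdown line and its parent was 0.77 ± 0.29 (SE) and did not pass (adjusted p = 0.406). Which part of the transcript each probe set reads is not given in the sources used here, and the cause of the disagreement was not tested.

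**Figure D2:**
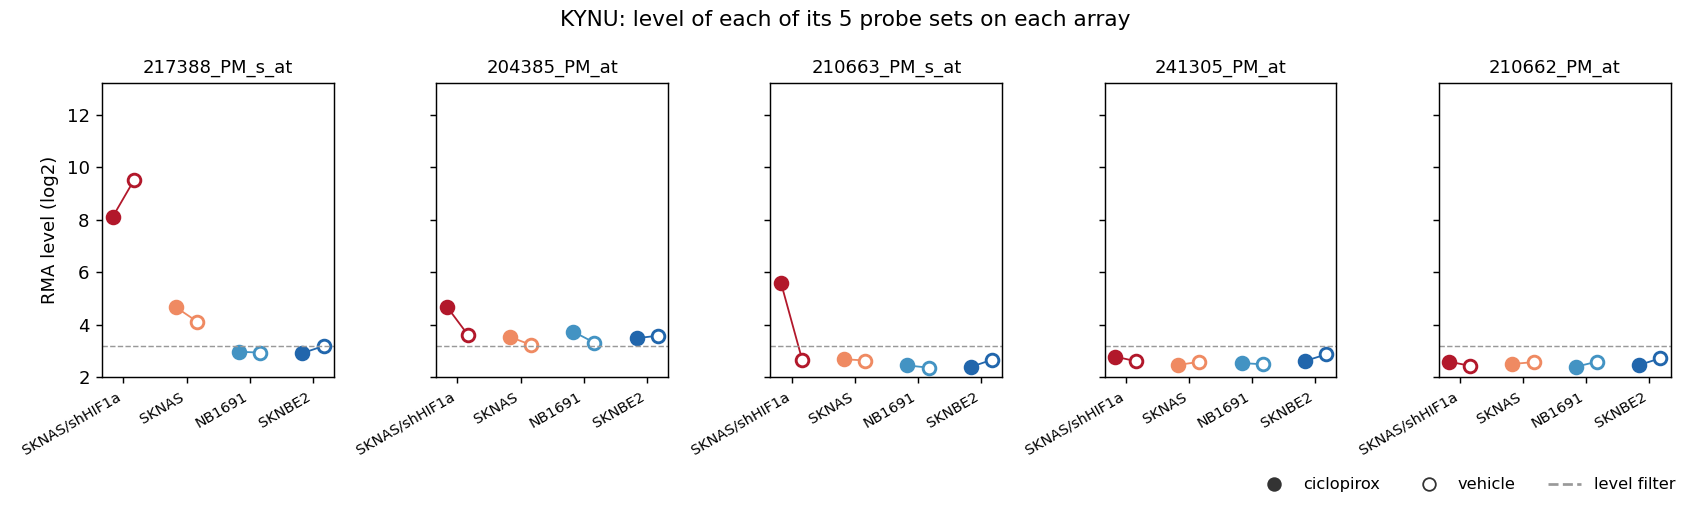
Level of the 5 KYNU probe sets on each array (y axis, RMA level in log2; x axis, cell line; filled points ciclopirox, open points vehicle, dashed line the level filter). In SKNAS/shHIF1a the ciclopirox array is the lower of the pair on 217388_PM_s_at (8.12 against 9.51) and the higher on 204385_PM_at (4.69 against 3.61) and on 210663_PM_s_at (5.59 against 2.68).

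QPRT, the enzyme that leads quinolinate into NAD, was measured well above the filter in every line and was lower in the SKNAS-derived lines. Its levels under ciclopirox and vehicle were 7.12 and 8.81 in SKNAS/shHIF1a, and 8.10 and 8.71 in SKNAS. They were 10.68 and 10.20 in NB1691, and 10.26 and 9.88 in SKNBE2. The difference of the SKNAS-derived lines from the other lines was -2.07 ± 0.38 (SE, limma adjusted p = 0.00623). In this comparison 45.8% of tested genes passed, 23% as lower. Its second probe set, 204044_PM_at, gave -1.70 ± 0.31 (adjusted p = 0.00656 among all probe sets). Line means ran from 10.44 ± 0.34 in NB1691 and 10.07 ± 0.27 in SKNBE2 to 8.41 ± 0.44 in SKNAS and 7.96 ± 1.20 in SKNAS/shHIF1a (SD, 2 arrays). No neighbours in that order differed past the threshold: NB1691 minus SKNBE2 was 0.37 ± 0.53 (SE, adjusted p = 0.665), SKNAS minus SKNBE2 was -1.66 ± 0.53 (adjusted p = 0.0613) and SKNAS/shHIF1a minus SKNAS was -0.44 ± 0.53 (adjusted p = 0.878). Lines further apart did: SKNAS/shHIF1a minus NB1691 was -2.48 ± 0.53 (adjusted p = 0.015, with 37.2% of genes passing) and SKNAS/shHIF1a minus SKNBE2 was -2.11 ± 0.53 (adjusted p = 0.0299, with 31.1% passing). The difference between the knockdown line and its parent was -0.98 under ciclopirox and 0.09 under vehicle.

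The comparison of ciclopirox with vehicle asked whether the enzymes respond to the drug across lines. None of the 4 tested enzymes passed, and neither did any other gene: limma with the line as a block called 0 of 14517 genes (0%; smallest adjusted p 0.121), while 2599 had an unadjusted p under 0.05. Mean changes were 0.32 ± 0.26 for TDO2 (SE, n = 4 lines; adjusted p = 0.553), -0.27 ± 0.31 for KYNU (adjusted p = 0.679) and -0.36 ± 0.38 for QPRT (adjusted p = 0.65). The lines behind these means were unequal, and the signs turned when SKNAS/shHIF1a was left out (-0.01, 0.10 and 0.08). SKNAS and SKNAS/shHIF1a are not independent lines, and with both averaged to give 3 pairs 0 genes passed as well.

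The sizeable changes under ciclopirox were in SKNAS/shHIF1a. TDO2 changed there by 1.31, against 0.18 in SKNAS, -0.19 in NB1691 and -0.03 in SKNBE2. KYNU changed by -1.39 on its brightest probe set, against 0.54, 0.03 and -0.27. QPRT changed by -1.69, against -0.62 in SKNAS, 0.49 in NB1691 and 0.38 in SKNBE2. So 3 of the 4 tested enzymes passed 2-fold in that line, where 9.83% of all tested genes did. None of the 4 did in SKNAS, NB1691 or SKNBE2, where 4.99%, 8.43% and 3.35% did. In NB1691 and SKNBE2, however, TDO2 and KYNU lay below the level filter on every array. A fall there could not be seen, so no lack of response can be read for them. A pair of arrays carries no test, and the difference between the responses of the knockdown line and its parent cannot be tested with 1 array each.

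**Figure D3:**
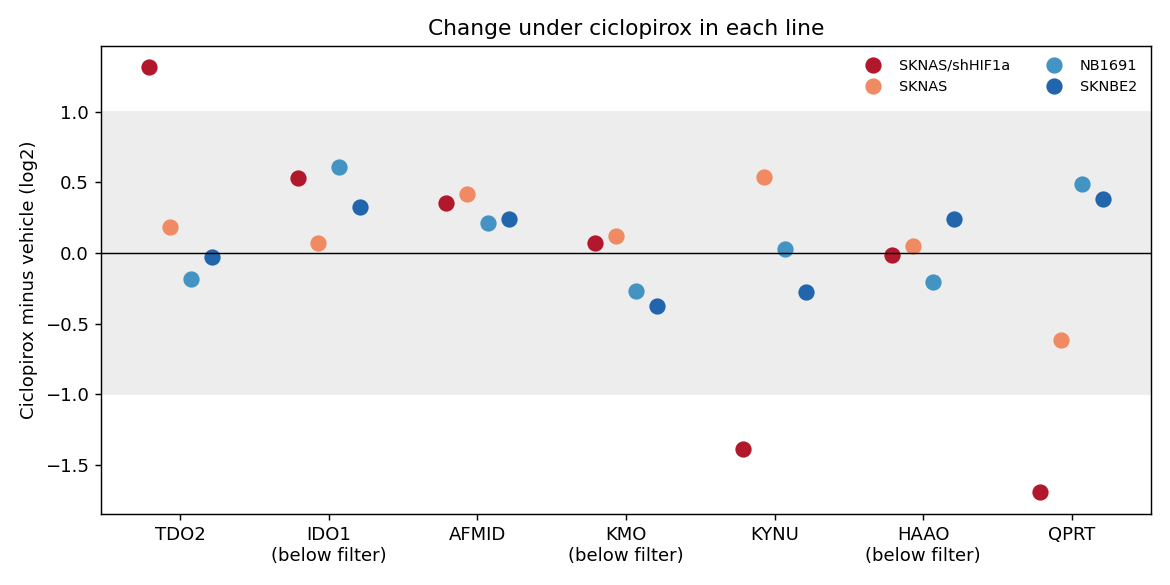
Ciclopirox minus vehicle (y axis, log2) for the 7 enzymes (x axis) in each line, 1 pair of arrays per point. The grey band spans changes under 2-fold; the points outside it are TDO2 at 1.31, KYNU at -1.39 and QPRT at -1.69, all in SKNAS/shHIF1a.

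For QPRT the change ran in opposite directions by line origin on the brightest probe set. The mean change of the SKNAS-derived lines minus that of NB1691 and SKNBE2 was -1.59 ± 0.40 (SE, 2 changes each). In limma over the 4 changes it did not pass (unadjusted p = 0.00956, adjusted p = 0.289), in a comparison in which 5 genes (0.0344%) passed. SKNAS and its derivative are not independent lines, so this error and p-value may understate the spread between lines. The second QPRT probe set gave changes of -1.76 in SKNAS/shHIF1a and -0.78 in SKNAS, against 0.11 in NB1691 and -0.12 in SKNBE2. It repeats the lower values in the SKNAS-derived lines but not the higher ones in both other lines, and its difference by origin was -1.26 ± 0.39 (SE, adjusted p = 0.407).

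The other genes of tryptophan use were counted by list. Under ciclopirox none passed, and the values below are mean changes over 4 lines. Of 7 tested branch enzymes 6 were lower in all 4 lines, where 16.0% of all genes were. They were the aminotransferases KYAT1, KYAT3, AADAT and GOT2, which make kynurenic acid, and GCDH and DHTKD1, which act in a separate branch. Their list median was -0.26, against -0.02 over all genes. GCDH had -0.92 and AADAT -0.64, and the seventh, the amino acid oxidase IL4I1, had 0.95, with levels of 6.04 under ciclopirox and 3.30 under vehicle in SKNAS/shHIF1a and at most 3.56 on every other array. Of 12 regulators of IDO1, 6 were higher in all 4 lines, where 11.8% of all genes were (list median 0.32), with the interferon-response factor IRF1 at 2.01 and the NF-kB subunit RELB at 1.14. IRF1 stood at 8.36 and 5.52 in SKNAS/shHIF1a, 8.63 and 5.92 in SKNAS, 4.99 and 3.92 in NB1691, and 4.81 and 3.40 in SKNBE2 under ciclopirox and vehicle, while IDO1 moved by no more than 0.61 in any line.

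The remaining lists had no member past the test for ciclopirox either. AHR genes had a median of 0.45, led by the target CYP1A1 at 1.13 and TIPARP at 0.62. The heme and glucocorticoid list had a median of 0.63, with ALAS1, which starts heme synthesis, at 1.00 and the glucocorticoid receptor NR3C1 at 0.79. In NAD synthesis, NAMPT, the salvage enzyme, had 1.16 and NMNAT2 1.06, with a list median of -0.04. Among transport and charging genes SLC3A2, a subunit of the amino acid transporter, had 0.80 and the tryptophanyl-tRNA synthetase WARS1 0.67, with a median of -0.11. In the serotonin branch DDC had -0.34 and SLC18A2 0.07, with a median near 0 (-0.004). MAOA of that branch had a mean of 0.01 from changes of opposite sign. They were 0.89 in SKNAS/shHIF1a and 1.01 in SKNAS, but -1.22 in NB1691 and -0.63 in SKNBE2. Its difference in response by line origin was 1.88 ± 0.29 (SE) and did not pass (limma, adjusted p = 0.181).

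Between the SKNAS-derived lines and the other lines, where 22.8% of genes passed as higher and 23.0% as lower, the lists differed in direction. All 4 tested genes of the serotonin branch were lower, the decarboxylase DDC by -1.49, the vesicle transporters SLC18A1 by -4.40 and SLC18A2 by -4.20, and MAOA by -1.53. Their median was -2.86, against -0.04 over all genes. The rest of this list of 10, TPH1, TPH2, MAOB, AANAT, ASMT and SLC6A4, lay below the level filter by their means and were not tested. The median therefore does not cover the whole branch. Of 7 transport and charging genes 5 were lower and 0 higher (median -1.12), with the aromatic amino acid transporter SLC16A10 at -3.51, SLC7A5 at -1.77, SLC36A4 at -1.35, SLC3A2 at -1.12 and the mitochondrial synthetase WARS2 at -0.95. SLC7A5 did not pass without SKNBE2 (-1.17, adjusted p = 0.0884), and WARS2 did not pass without SKNAS, NB1691 or SKNAS/shHIF1a (adjusted p = 0.113, 0.116 and 0.0584). Of 7 AHR genes 5 were higher and 0 lower (median 2.18). AHR itself had levels of 10.60 and 9.32 in SKNAS/shHIF1a and 10.05 and 8.87 in SKNAS under ciclopirox and vehicle, against 5.61 and 5.40 in NB1691 and 2.39 and 2.76 in SKNBE2. Among AHR targets CYP1B1 was higher by 5.40, TIPARP by 2.47 and CYP1A1 by 2.18, the last not passing without SKNAS (2.49, adjusted p = 0.0505). In SKNBE2 CYP1B1 lay near the level filter, at 2.905 under ciclopirox and 3.31 under vehicle. AHRR, the AHR repressor, was higher by 1.86, but that rests on SKNBE2, without which it was -0.02.

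Of 12 IDO1 regulators 10 were higher and 1 lower (median 1.62), among them SOCS3, a brake on cytokine signalling, by 5.20, IRF1 by 2.83 and RELB by 2.37, while IDO1 itself stayed at or below 3.44 on every array. The interferon gamma receptor chain IFNGR2 was higher by 1.84, the kinases JAK1 and JAK2 by 1.59 and 0.69, SOCS1 by 1.65, the NF-kB subunit NFKB1 by 1.67, BIN1 by 0.73 and STAT3 by 0.52, and the receptor chain IFNGR1 was lower by -0.96. Of these, JAK2, STAT3 and BIN1 did not pass without SKNBE2 (0.29, 0.23 and 0.49), STAT3 and BIN1 without SKNAS/shHIF1a (0.42 and 0.30), and IFNGR1 without NB1691 (-0.55). In NAD synthesis 5 of 8 were higher and 1 lower (median 1.05), with the nicotinamide methyltransferase NNMT at 4.04, the riboside kinase NMRK1 at 2.61, NAMPT at 1.59, NAPRT at 1.13 and NADSYN1 at 0.96, and NMNAT2, the neuronal form, at -5.18. Of 4 heme and glucocorticoid genes 3 were higher (median 1.36), though without SKNBE2 only 1 was. NR3C1 was higher by 2.69, HMOX1 by 2.06 and FECH, which inserts iron in the last step of heme synthesis, by 0.66. Without SKNBE2 NR3C1 and FECH had 0.46 and 0.35 and did not pass. The branch enzymes had 2 higher and 2 lower (median -0.22), with GOT2 at -0.98, KYAT1 at -0.40, AADAT at 0.62 and KYAT3 at 0.37. Without SKNAS, and likewise without NB1691, 0 passed as higher and 1 as lower in limma, 1 passed as lower without SKNBE2 and 1 as higher without SKNAS/shHIF1a. Without NB1691 the monoamine oxidase MAOA of the serotonin branch turned to 0.28, and without SKNAS/shHIF1a it had -0.88 and did not pass (adjusted p = 0.2).

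**Figure D4:**
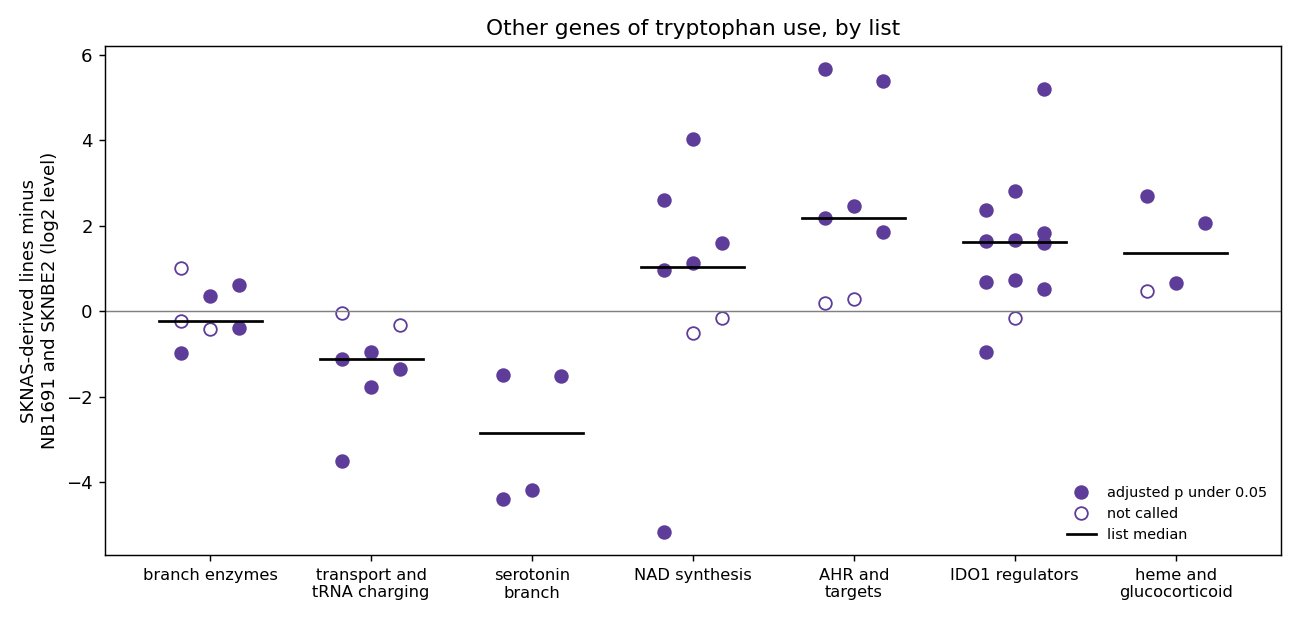
Level difference, SKNAS-derived lines minus NB1691 and SKNBE2 (y axis, log2), for the tested genes of 7 lists around tryptophan use (x axis). Each point is 1 gene, filled where the adjusted p is under 0.05, and the bar is the list median, from -2.86 in the serotonin branch to 2.18 in the AHR list.

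Between the knockdown line and its parent, 2 genes of these lists passed. SLC18A1, a vesicle transporter, was lower by -1.35 (adjusted p = 0.0199) and HMOX1, the heme-degrading oxygenase, was higher by 1.12 (adjusted p = 0.0461). HMOX1 no longer passed with NB1691 left out (adjusted p = 0.0735), and neither did SLC18A1 or HMOX1 without SKNBE2 (adjusted p = 0.0538 and 0.104). Each call also ended with any 1 of the 4 compared arrays left out, with an adjusted p of 0.0826 to 0.203 for SLC18A1 and 0.0983 to 0.427 for HMOX1. Cell state markers moved in the same comparison: AXL of the mesenchymal list was lower by -4.29 (adjusted p = 0.00713) and GATA2 of the noradrenergic list by -2.0 (adjusted p = 0.015). They were 1 of 8 and 1 of 7 markers to pass, with list medians of -0.81 and -0.52, and their part in the KYNU, SLC18A1 and HMOX1 differences was not tested.

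Cells that usually carry this route were looked for by their markers. Of 8 myeloid markers 5 were below the filter on every SKNAS-derived array, and without PTPRC the list summed to 55.9 to 68.2 in linear signal in the SKNAS-derived lines and 61.3 to 95.0 in NB1691 and SKNBE2. PTPRC, the leukocyte phosphatase CD45, had 6.33 and 9.57 in SKNAS/shHIF1a and 10.42 and 11.53 in SKNAS under ciclopirox and vehicle, against at most 3.29 in the other lines. Of 4 hepatocyte markers analysed, ALB stood at 2.35 to 3.06 over all arrays, and the list summed to 43.5 to 49.1 and 47.4 to 50.2 in the same groups. The mesenchymal and noradrenergic markers moved with the same split of lines as TDO2 and QPRT, and their part in these differences was not tested.

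Genes with the most similar pattern over the 8 arrays were found by Pearson r of log2 levels, which here mostly reflects the 4 lines. For TDO2 they were LATS2, TRIM21 and IGF2BP2 (r = 0.999, 0.999 and 0.996). For KYNU they were MYPN, KCNE4 and ABCC2 (0.990, 0.989 and 0.983), of which KCNE4 had 6.35 and 7.17 in SKNAS/shHIF1a against 3.32 and 3.91 in SKNAS under ciclopirox and vehicle. For QPRT they were NUDT21, MCM3 and FASN (0.986, 0.984 and 0.981). Among the enzymes themselves TDO2 and QPRT had r = -0.933 and TDO2 and KYNU r = 0.792 over the same 8 arrays.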

How the data were processed

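Total RNA of 8 samples was labelled with a 3' IVT kit, per the labels' protocols. The deposited values are log2 signals that the authors made with RMA, per the submitters' processing notes; software and version are not given in the sources used here. The median level per array was 3.47 to 3.52, the values were used unscaled, and the number of arrays limits the precision. Samples were grouped by treatment and line as labelled. Of 19774 genes, 14517 reached the 40th percentile of probe set means (3.208). limma 3.58.1 (R 4.3.3) was fitted to all of them with line and treatment as terms (3 residual degrees of freedom); knockdown minus parent and the line comparisons are contrasts of that fit. The difference in response was fitted to the 4 changes (2 residual degrees of freedom). P-values are two-sided, adjusted after Benjamini and Hochberg over all tested genes and read at 0.05. The fit was tested on simulated data for ciclopirox minus vehicle. Lines pair the arrays: deviations from the treatment means had r = 0.817 to 0.898 within lines. Of 99 list entries 96 matched the array; the other 3 are not analysed here. Members and lists were chosen with earlier results of these data known. Named are the 7 enzymes, pathway list members past the test, otherwise up to 2 per list with the largest mean change, and 3 genes most like each enzyme spanning 2 log2 units; others named were chosen after their values were seen. Alternatives varied the filter, the probe set, the scaling, the variance model, the threshold, the line block and the samples. Pairs of lines, neighbouring genes, and leaving out single arrays were added after the data were seen.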

Additional observations from a re-analysis of the deposited data

Results flagged for a closer look

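On the chosen probe sets of 3 enzymes the change under ciclopirox had 1 sign in both SKNAS-derived lines and the other sign in NB1691 and SKNBE2. The mean change of the SKNAS-derived lines minus that of NB1691 and SKNBE2 was -1.59 for QPRT and 0.86 for TDO2, and a test of the difference itself did not pass (limma, adjusted p = 0.289 and 0.522). For KMO it was 0.42, and KMO was not tested because it lay below the level filter; with no filter its adjusted p was 0.561. The TDO2 and KMO levels behind the signs in NB1691 and SKNBE2 were at most 3.15. Dixon's criterion flagged no array within the ciclopirox or the vehicle group for any of the 7 enzymes. With 4 arrays of 4 different lines per group it can flag little, and no conclusion is drawn from it. KYNU under vehicle, for 1, had 9.51 in SKNAS/shHIF1a and at most 4.12 in the other lines. The split was not seen on the other probe sets of QPRT and TDO2: QPRT on 204044_PM_at had 0.11 in NB1691 and -0.12 in SKNBE2, and TDO2 on 231702_PM_at was above 0 in all 4 lines, by 0.04 to 0.76. Of the other 2 KMO probe sets, 205306_PM_x_at showed it and 211138_PM_s_at did not.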

How the results depend on the processing

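Over all genes, 0 passed for ciclopirox under every alternative run in limma, with no replicate block (0) and without each line (0 to 0) included. The count for the knockdown line (230) was 433 at a threshold of 0.1, 393 with its own and the parental arrays alone, and 23 to 184 with a line or array left out, 23 without the SKNAS vehicle array, 28 without its ciclopirox array, 149 without the SKNAS/shHIF1a vehicle array and 139 without SKNBE2. For line origin (6643) it was 11669 with every probe set tested alone and 4378 to 5822 with a line left out, lowest without SKNAS. For NB1691 minus SKNBE2 (3640) it was 5936 with every probe set tested alone and 1659 to 3292 with a line or array left out, lowest without an SKNBE2 array (1776 vehicle, 1659 ciclopirox). For the difference in response (5) it was 9 with probe sets averaged, 2 with every probe set alone, 13 at a threshold of 0.1 and 0 without any 1 line.

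The TDO2 and QPRT differences by line origin kept their direction and passed under every alternative run. For TDO2 these did not include its other probe set, 231702_PM_at, tested alone, as it lay below the level filter. That probe set did not show the step between lines, so the TDO2 difference rests on 205943_PM_at. KYNU depends on its probe sets. With their mean, the KYNU ciclopirox change was 0.15, the difference in response 0.44 and the knockdown difference 1.36 (adjusted p = 0.0531); on 204385_PM_at they were 0.43, 0.53 and 0.77, and the origin difference was 0.24 (adjusted p = 0.392). Signs that turned in differences that did not pass were the ciclopirox changes without SKNAS/shHIF1a (-0.01 TDO2, 0.10 KYNU, 0.084 QPRT) and QPRT in the knockdown line under vehicle alone (0.094). With a line or array left out, the KYNU difference in response ran from -1.265 to 0.661, QPRT in the knockdown line from -1.332 to 0.444 and AFMID by origin from -0.151 to 0.286. For NB1691 minus SKNBE2 AFMID gave -0.064 with median centring and -0.046 with quantile normalization, and with an array left out AFMID ran from -0.057 to 0.064, KYNU from -0.301 to 0.103, TDO2 from -0.502 to 0.175 and QPRT from -0.194 to 0.932. Calls by origin that turned with a line left out were AHRR (-0.017 to 3.745), KYAT3 (-0.132 to 0.865) and MAOA (-3.334 to 0.282). The causes were not tested. Levels near the filter limit IDO1, KMO and HAAO.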

Other observations

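The genes next to TDO2 on its chromosome did not share 1 pattern. CTSO, a lysosomal protease gene, and PDGFC, a growth factor gene, on one side, were higher in the SKNAS-derived lines by 4.21 and 4.51, while GUCY1B1 on the other side differed by -0.36 and ASIC5 stayed between 2.71 and 3.15. Next to KYNU, ARHGAP15 and LRP1B differed between SKNAS/shHIF1a and SKNAS by -0.30 to 0.30 under either treatment, QTMAN by 0.90 under ciclopirox and 0.65 under vehicle, and NXPH2 by -0.71 and -1.40. Next to QPRT, SPN stayed between 5.85 and 6.26 over all arrays and BOLA2 between 3.95 and 4.99. These are values with no test.

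NB1691 and SKNBE2 did not differ past the test in any of the 4 tested enzymes, in a comparison in which 25.1% of genes passed. TDO2 and KYNU lay below the level filter in both lines and AFMID lay near it, so for these genes no likeness can be read. The 2 lines differed in the AHR list: 5 of 7 genes were higher in NB1691 and 0 lower (median 1.96), against 12.9% of all genes higher. CYP1B1 was higher by 3.94, AHRR by 3.76 and AHR by 2.92. In SKNBE2 AHR lay below the level filter, at 2.39 under ciclopirox and 2.76 under vehicle, so its difference is a lower bound. CYP1B1 lay near the filter there, at 2.905 and 3.31, so its difference may be one as well.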
